A study of Mus musculus with 8 samples.

Results

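Promoter 6mA peaks are the intervals of immunoprecipitated DNA that the authors placed at the promoter of a gene, and 3912 of the 90798 peaks in 8 deposited lists were of this class. A peak was counted where the first row of its name carried the class promoter, which in these files means that its middle lay within 2000 bases of the start of the row's RefSeq transcript. N6-methyladenine (6mA), a methyl group on adenine, was pulled down from sonicated mouse DNA and sequenced beside input DNA. NTD brains came from embryos with neural tube defects, whose dams ate a low-folate diet and received 1.5 mg/kg methotrexate, a folate antagonist, at gestational day 7.5. CON brains came from normal embryos recorded with normal saline, and embryos of both groups were examined at embryonic days 9.5 to 10.5, so that diet, drug and defect cannot be told apart. Sv/129 embryonic stem cells were kept in medium that lacked folate (FA0) or held 4 mg/L of it (FA4). The brain lists held 2059 promoter peaks of 31913 peaks and the cell lists 1853 of 58885. There were 367, 355 and 453 in the NTD lists, against 180, 413 and 291 in the CON lists, and 1234 in FA0, against 619 in FA4.

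In bacteria 6mA is an abundant mark that serves restriction and mismatch repair, while in mammalian DNA it is scarce and its level and enzymes are debated. A promoter is the sequence around a transcription start site where general transcription factors and RNA polymerase II assemble. Many mouse promoters, above all those of broadly used genes, lie in CpG islands, which are rich in G, C and the CG dinucleotide, while many promoters of genes used in few tissues are not.

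Start-site windows show what the peaks covered and what they left bare. Each is the stretch from 250 bases before to 50 bases after a RefSeq start (GRCm38.p6, the assembly of mm10), printed 5′ to 3′ on the gene's strand with every CG dinucleotide in capitals. The starts are those of the RefSeq table, which differ from the starts behind the deposited distances for some genes, A530040E14Rik among them, and some genes have no window there. Of 32851 windows, 5 were overlapped by promoter peaks of at least 2 lists, and these come first. 4931408C20Rik (chr1:26687411-26687710, minus strand) was overlapped in NTD 2, NTD 3 and FA0 and holds no CG dinucleotide. A530040E14Rik (chr1:85105843-85106142, plus strand) was overlapped in the 3 CON lists, while peaks of NTD 1 and NTD 3 in the same merged region end just before it. Gm21190 (chr5:15529173-15529472, minus strand) was overlapped in NTD 1 and NTD 2, and Gm15319 (chr8:20363153-20363452, minus strand) in NTD 1 and FA0. Gm33272 (chrY:90793437-90793736, plus strand), overlapped in NTD 1 and NTD 3, is the CpG-rich one of these 5, with 39 CG dinucleotides.
4931408C20Rik: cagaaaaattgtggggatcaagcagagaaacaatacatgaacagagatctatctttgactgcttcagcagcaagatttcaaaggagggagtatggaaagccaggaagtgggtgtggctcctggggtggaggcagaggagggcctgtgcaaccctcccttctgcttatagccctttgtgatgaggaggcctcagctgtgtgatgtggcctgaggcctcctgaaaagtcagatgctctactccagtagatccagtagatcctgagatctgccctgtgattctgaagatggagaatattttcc
A530040E14Rik: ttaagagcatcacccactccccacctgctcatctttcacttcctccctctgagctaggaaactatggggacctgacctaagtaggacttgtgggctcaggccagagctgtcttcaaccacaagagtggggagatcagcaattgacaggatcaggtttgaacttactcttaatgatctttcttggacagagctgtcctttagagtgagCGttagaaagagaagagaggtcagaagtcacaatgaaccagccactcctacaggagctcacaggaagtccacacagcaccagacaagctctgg
Gm21190: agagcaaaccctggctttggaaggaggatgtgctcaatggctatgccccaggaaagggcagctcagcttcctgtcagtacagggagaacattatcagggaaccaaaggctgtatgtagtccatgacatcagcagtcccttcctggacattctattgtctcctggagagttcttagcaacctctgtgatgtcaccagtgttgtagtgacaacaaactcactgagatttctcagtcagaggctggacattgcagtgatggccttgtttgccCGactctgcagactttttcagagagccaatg
Gm15319: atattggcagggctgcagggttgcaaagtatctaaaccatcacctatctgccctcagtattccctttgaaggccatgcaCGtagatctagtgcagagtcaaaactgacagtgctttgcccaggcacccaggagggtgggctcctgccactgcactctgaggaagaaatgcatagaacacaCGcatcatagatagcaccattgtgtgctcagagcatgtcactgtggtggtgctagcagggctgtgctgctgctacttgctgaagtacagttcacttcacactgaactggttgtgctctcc
Gm33272: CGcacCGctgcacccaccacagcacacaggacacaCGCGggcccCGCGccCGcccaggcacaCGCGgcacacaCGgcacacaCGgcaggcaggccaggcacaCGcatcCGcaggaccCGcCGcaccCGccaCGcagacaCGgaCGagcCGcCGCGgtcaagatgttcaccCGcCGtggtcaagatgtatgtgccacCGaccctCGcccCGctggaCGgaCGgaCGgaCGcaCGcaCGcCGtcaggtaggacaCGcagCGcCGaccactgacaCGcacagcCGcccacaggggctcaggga

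The next pair of windows is shown because peaks recurred beside them and not on them. Apoe encodes apolipoprotein E, which carries lipids in plasma and brain, and its window (chr7:19698572-19698871, minus strand) holds 12 CG dinucleotides. Vps4a encodes an ATPase that takes apart ESCRT filaments at membranes, and its window (chr8:107031019-107031318, plus strand) holds 26. Both windows are CpG-rich by the measure used further on, and no promoter peak of any list overlapped either.
Apoe: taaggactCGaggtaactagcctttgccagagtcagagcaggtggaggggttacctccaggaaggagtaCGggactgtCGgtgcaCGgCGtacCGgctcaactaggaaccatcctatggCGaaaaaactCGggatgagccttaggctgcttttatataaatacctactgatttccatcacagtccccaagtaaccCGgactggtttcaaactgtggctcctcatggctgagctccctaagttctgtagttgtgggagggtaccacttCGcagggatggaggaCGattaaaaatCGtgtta
Vps4a: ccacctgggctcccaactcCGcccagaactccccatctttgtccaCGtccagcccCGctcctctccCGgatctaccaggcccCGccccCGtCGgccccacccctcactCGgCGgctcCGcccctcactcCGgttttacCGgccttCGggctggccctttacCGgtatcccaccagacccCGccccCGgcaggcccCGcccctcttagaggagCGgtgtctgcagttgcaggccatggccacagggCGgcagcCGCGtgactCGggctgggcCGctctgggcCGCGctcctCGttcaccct

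MicroRNA genes also carried promoter peaks. The mature microRNA of Mir101c (chr9:3038680-3038698, minus strand), the microRNA gene with a promoter peak in all 8 lists, and that of Mir101b (chr19:29135338-29135356, plus strand), whose hairpin a promoter peak of FA0 overlapped, are given with the seed, bases 2 to 8, in capitals. Both come from RefSeq (GRCm38.p6), and their seeds as recorded there are different.
mmu-miR-101c: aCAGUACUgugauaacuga
mmu-miR-101b-3p: gUACAGUAcugugauagcu

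Promoter peaks were small. The median promoter peak held 8, 8 and 7 tags in the NTD lists, against 9, 8 and 9 in the CON lists, and 8 in FA0, against 8 in FA4. No read totals were used, so depth is seen only at the peaks, and shares below carry Wilson 95% intervals that cover counting error alone. A deposited q above 0.05 was given to 97.9% of the brain promoter peaks. The labels put the 3 immunoprecipitations of a brain group under 1 sample record and do not say whether they came from separate embryos, and each list was called against the same input of its group, so p-values measure only the spread between these lists. A comparison of 3 lists with 3 can give no two-sided exact p below 0.1, and one made within each of 6 lists none below 0.03125.

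Promoter peaks made up 6.34%, 6.32% and 6.38% of the peaks of the NTD lists, against 6.44%, 6.24% and 7.29% in the CON lists. The groups overlapped in this share (exact permutation test, two-sided p = 0.6). In the cells the share was 3.19% in FA0 (interval 3.02% to 3.37%), against 3.07% in FA4 (2.84% to 3.31%), so these intervals overlap. The brain lists were annotated with predicted RefSeq transcripts as well as curated ones, and 57.8% to 63.9% of brain promoter peaks sat at a predicted transcript, while the cell lists held curated transcripts alone. The brain and cell shares are therefore not comparable. At the limit of the class, 5 to 78 peaks per list had their middle in the last 100 bases inside 2000 bases, with a median of 7 to 11 tags, and 12 to 61 in the 100 bases beyond, with a median of 7 to 9 tags.

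Promoter peaks lay away from the start site itself. Peaks with their middle within 500 bases of the start made up 14.7%, 20.6% and 18.5% of the promoter peaks of the NTD lists, against 18.3%, 18.9% and 18.6% in the CON lists. An even spread over the 2000 bases on either side would give 25%, and every brain list was below it. The same share was 14.4% in FA0 (interval 12.6% to 16.5%), against 13.7% in FA4 (11.2% to 16.7%), both below the even spread as well.

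The mean shortfall over the 6 brain lists was -6.73 ± 1.92 percentage points (SD, n = 6; exact sign-flip test, two-sided p = 0.03125, the smallest possible). Its adjusted p was 0.0469 over 3 tests of position and 0.0521 over these and the 7 measures of promoter against other peaks given further on. These 3 tests of position were chosen after the data had been seen. When the distance was taken to the nearest start among all transcript rows of the peak, the shortfall was -3.74 points, again in the same direction. An even spread takes no account of neighbouring start sites.

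Counted per kilobase of distance over peaks of every class, the density within 500 bases of the start was 0.518 to 0.777 times that between 500 and 2000 bases in the brain lists, 0.506 times in FA0 and 0.478 times in FA4. Against the next 2000 bases outward, it was 0.671 to 0.952 times in the brain lists, 0.514 times in FA0 and 0.534 times in FA4. Few peaks reached the start site: a promoter peak covered it in 3.00%, 5.35% and 3.75% of cases in the NTD lists, against 4.44%, 4.60% and 4.81% in the CON lists, and 3.97% in FA0, against 3.88% in FA4. Of the 43 brain promoter peaks with q at most 0.05, 3 lay within 500 bases, as did 3 of 61 in the cells.

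The dip was not symmetric in the cells. Peaks in the 500 bases after the start were 5.11% of promoter peaks in FA0, against 5.17% in FA4, whereas those in the 500 bases before it were 9.32% in FA0, against 8.56% in FA4. In the brain lists both sides held similar shares, 7.36% to 11.0% after the start and 7.36% to 9.69% before it. NTD and CON lists did not separate in the share within 500 bases, at 17.9 ± 2.97% in NTD and 18.6 ± 0.278% in CON (SD, n = 3 each; exact permutation test, two-sided p = 0.8).

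**Figure D1:**
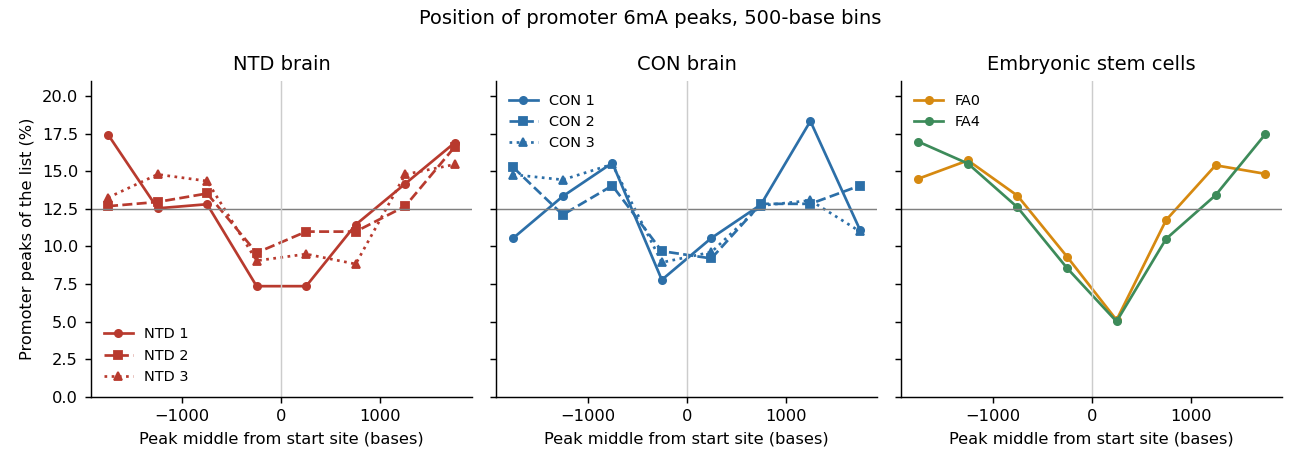
Share of promoter peaks (%, vertical axis) in 500-base bins of distance from peak middle to start site (bases, horizontal axis, negative upstream), 1 line per list, with a grey line at the 12.5% an even spread would give. In every list the bins next to the start site are below the grey line, and those of FA0 and FA4 just after it are at 5.11% and 5.01%.

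The start-site windows that promoter peaks overlapped were less often CpG-rich than all windows. A window was called CpG-rich with GC of at least 50% and a ratio of observed to expected CG of at least 0.6, which held for 33.5% of all windows. Promoter peaks overlapped 22, 25 and 33 windows in the NTD lists, against 14, 32 and 16 in the CON lists, and 117 in FA0, against 35 in FA4. Of the windows overlapped, 18.2%, 8% and 9.09% were CpG-rich in the NTD lists, against 21.4%, 3.13% and 18.8% in the CON lists, and 16.2% in FA0, against 14.3% in FA4.

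Every list was thus below the 33.5% of all windows. The share of CpG-rich windows overlapped was 0.0273 ± 0.00910% in NTD and 0.0212 ± 0.0105% in CON, and of the other windows 0.108 ± 0.0276% were overlapped in NTD and 0.0839 ± 0.0504% in CON (SD, n = 3 each). CpG-rich windows were overlapped less often than the others in 6 of 6 brain lists, by a mean of -0.0718 ± 0.0448 points (SD, n = 6; exact sign-flip test, two-sided p = 0.03125, adjusted p = 0.0469 over the 3 tests of position and 0.0521 over 10). The 1 to 4 CpG-rich windows behind each brain value are few. Among peaks with q at most 0.05 the difference was -0.000763 points (exact p = 1), on the few peaks that remain. Starts missing from the window table could not be counted. Of the promoter peaks of a brain list, 53.9% to 59.4% lay within 2000 bases of a start in that table. An overlap of 1 base was enough, so an overlapped window need not have its start covered.

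**Figure D2:**
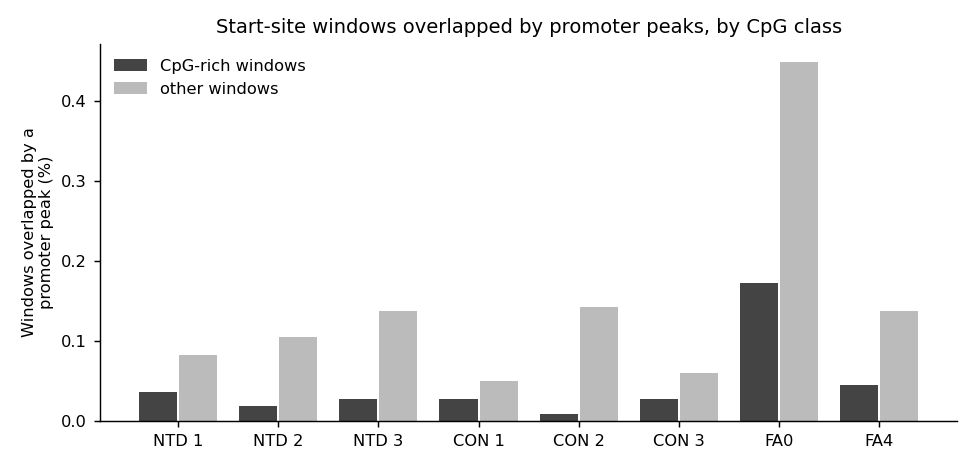
Share of start-site windows overlapped by a promoter peak (%, vertical axis, from 0) in each list, for CpG-rich windows (dark bars) and other windows (light bars). The dark bar is the shorter one in all 8 lists, with 0.173% against 0.448% in FA0.

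A check of CpG class over the promoter peaks themselves covered only part of them. Those within 2000 bases of a start in the window table were 53.9% to 59.4% per brain list, 74.5% in FA0 and 70.9% in FA4. Among these, peaks within 500 bases were 5.97%, 2.33% and 7.94% at CpG-rich starts of the NTD lists, against 18.8%, 9.09% and 7.32% in the CON lists. The same share at other starts was 21.5%, 23.1% and 23.3% in the NTD lists, against 18.5%, 24.6% and 22.0% in the CON lists. CON 1, with 16 peaks at CpG-rich starts, was the list in which the shares did not differ in that direction (mean difference -13.6 ± 7.13 points, SD, n = 6).

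Letters were counted in these same overlapped windows, so their shares are not separate evidence from the CpG content above. GGGCGG, the core of the GC box bound by Sp1, was found on either strand in 12.4% of the 137 windows overlapped in brain and 17.1% of the 152 overlapped in the cells, against 35.7% of all windows. TATAAA, the core of the TATA box, was in 20.4% of those in brain and 17.8% in the cells, against 13.6% of all windows. GATC, the site that the bacterial Dam enzyme methylates at adenine, was in 48.2% of those in brain and 51.3% in the cells, against 48.0% of all. Both strands were searched, none of these motifs contains another, and no test was made. Of the windows printed above, the TATAAA letters are in that of Apoe and the GGGCGG letters in those of Gm33272 and Vps4a.

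Set against the other peaks of the same list, promoter peaks reached a low q more often. A q of at most 0.05 was held by 1.63%, 1.97% and 1.10% of promoter peaks in NTD 1, 2 and 3, against 1.09%, 1.10% and 0.812% of the other peaks. In CON 1, 2 and 3 it was held by 3.33%, 2.42% and 3.09% of promoter peaks, against 2.29%, 1.10% and 1.76% of the other peaks. The direction was the same in 6 of 6 lists, with a mean of 2.26% for promoter peaks and 1.36% for other peaks. The exact sign-flip test gave the smallest two-sided p, 0.03125, which is 0.0547 after adjustment over 7 measures, so it did not pass 0.05. Few promoter peaks lay behind these shares, 5 to 10 per brain list, and in every list they included those at 2700054A10Rik and Mir101c. Without peaks of raised background the difference was 0.305 points (exact p = 0.09375), against 0.902 points with them. On autosomes alone it was 0.616 points (exact p = 0.03125, adjusted p = 0.0729).

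Promoter peaks also recurred more. A peak was recurrent where it overlapped a peak of another brain list by at least 1 base, and this held for a mean of 8.63% of promoter peaks and 4.28% of other peaks, higher in 6 of 6 lists (exact sign-flip test, two-sided p = 0.03125, adjusted p = 0.0547). A raised background, over 1% above the commonest background of the list, was implied by the fold of 16.8% of promoter peaks on average, a mean of 4.83 points above the other peaks and higher in 6 of 6 lists (exact p = 0.03125, adjusted p = 0.0547). When peaks with a raised background were left out, the difference in recurrence was 0.988 points (exact sign-flip test, two-sided p = 0.03125, adjusted p = 0.109), against 4.35 points with them. The part of the background in the recurrence beyond this was not tested.

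Chromosome X held fewer of the promoter peaks than of the others, a mean of 1.35% against 2.67%, in 6 of 6 lists (exact sign-flip test, two-sided p = 0.03125, adjusted p = 0.0547). Median tags, width and fold did not separate promoter from other peaks (exact p = 1, 0.5 and 1). Median width, for one, averaged 254 ± 11.1 bases for promoter peaks and 253 ± 8.98 bases for other peaks (SD, n = 6 lists). In the cells, with 1 list each, q at most 0.05 was held by 2.35% of promoter peaks of FA0, against 2.68% of its other peaks, and by 5.17% of promoter peaks of FA4, against 4.67% of its other peaks.

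**Figure D3:**
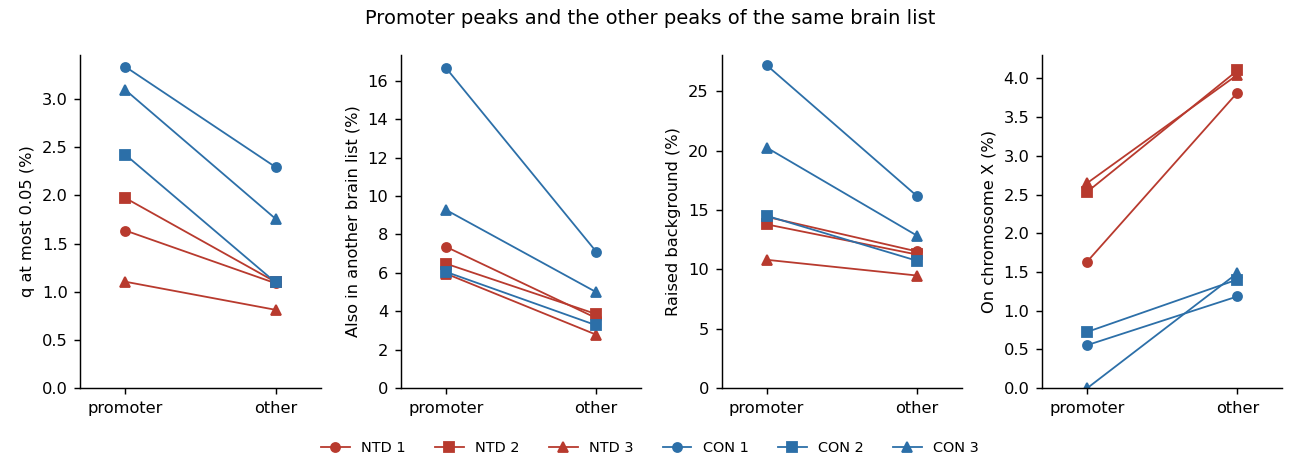
Share of promoter peaks (left point) and other peaks (right point) of each brain list, joined by a line, with q at most 0.05, recurrence in another brain list, a raised background, or a place on X (%, vertical axes, from 0). All 6 lines fall to the right in the first 3 panels and rise in the fourth, where the promoter points of the 3 NTD lists sit above those of the 3 CON lists.

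The comparison of NTD with CON asks whether promoter 6mA peaks differ between brains with and without neural tube defects. All lists of a group were called against the same input, so a difference between groups cannot be told apart from one between their inputs. Of 11 measures, 4 had groups that did not overlap, each at the smallest exact p of 0.1 and an adjusted p of 0.275, so none passed. Promoter peaks numbered 392 ± 53.5 in NTD and 295 ± 117 in CON (SD, n = 3 each), and the 97 peaks between the means are fewer than the SD of CON (exact permutation test, two-sided p = 0.3). The difference was 39.7 peaks without CON 1 and 156 without CON 2. They were assigned to 427 ± 53.6 gene symbols in NTD and 322 ± 133 in CON (exact p = 0.3).

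The first of the 4 was position within the promoter. The median promoter peak lay 1164 ± 21.5 bases from its start site in NTD and 1088 ± 26.3 bases in CON (SD, n = 3 each; exact permutation test, two-sided p = 0.1). The others were width, q and X. The median width averaged 245 ± 2.52 bases in NTD and 264 ± 5.35 bases in CON, and a q of at most 0.05 was held by 1.57 ± 0.438% of promoter peaks in NTD and 2.95 ± 0.473% in CON (exact p = 0.1 for both). X held 1.63%, 2.54% and 2.65% of the promoter peaks of the NTD lists, against 0.556%, 0.726% and 0% in the CON lists. Width and X were not measures in which promoter peaks alone separated. The other peaks had a median width of 242, 248 and 244 bases in the NTD lists, against 261, 260 and 261 in the CON lists, and 3.82%, 4.10% and 4.05% of them were on X in the NTD lists, against 1.18%, 1.40% and 1.49% in the CON lists. Without peaks of raised background the difference in q at most 0.05 was -0.290 points, against -1.38 points with them, and the groups overlapped (exact permutation test, two-sided p = 0.3). The sex of the embryos is not in the labels used here, and its part in the X share was not tested.

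The remaining measures overlapped between the groups. Upstream share, share within 200 bases of the start, and median tags gave exact p of 0.9, 1 and 0.3. Recurrent peaks were 6.60 ± 0.706% in NTD and 10.7 ± 5.44% in CON (SD, n = 3 each; exact permutation test, two-sided p = 0.3), and CON 1, the shortest list, had the highest value. The difference was -4.07 points, -0.819 points without CON 1 and -0.651 points without peaks of raised background.

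**Figure D4:**
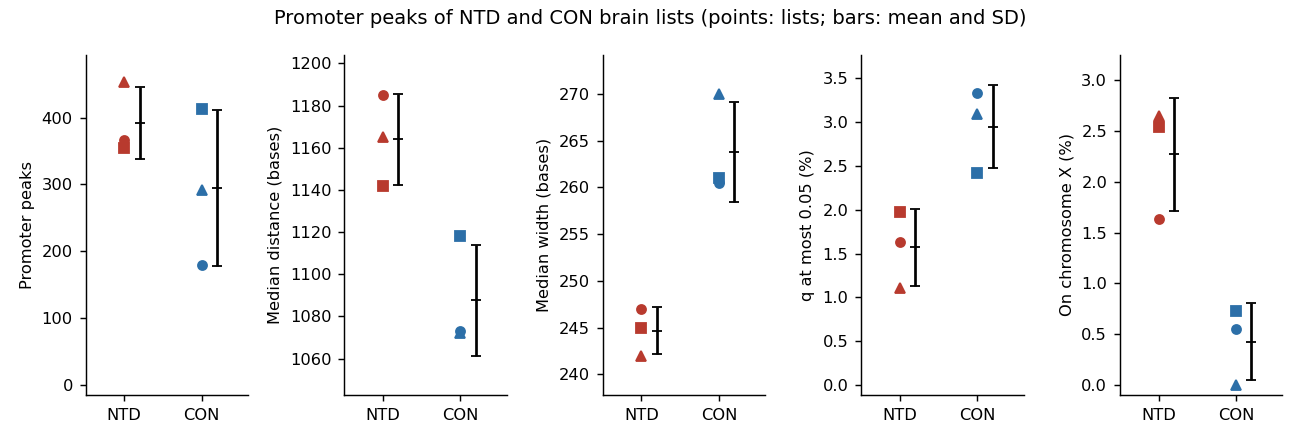
Number, median distance, median width, share with q at most 0.05 and share on X of promoter peaks in the 3 NTD and 3 CON lists (points; circle, square and triangle for lists 1, 2 and 3), with mean and SD beside them. The axes of distance and width do not start at 0. The number overlaps between groups and the other 4 do not.

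Merging promoter peaks that overlapped gave 3765 regions, 1960 of them with a brain list. A single brain list held 97.2% of these 1960 regions. There were 55 in at least 2 brain lists, or 2.81%, where the share over regions of all peak classes, promoters included, was 1.69%. In at least 3 lists there were 24 and in at least 4 there were 11. In 36 of the 55, and in 20 of the 24, every brain peak had a raised background.

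The 3 promoter regions in all 6 brain lists were 0.153% of the 1960, where the share over all classes was 0.0707%. They were at Usp17le, 2700054A10Rik and Mir101c. Usp17le, named for a multi-copy family of deubiquitinases, had 11, 11 and 11 tags in the NTD lists, against 13, 8 and 15 in the CON lists, at 878 to 1271 bases after the start (chr7:104771423-104772421, mm10). Its fold was 3.85, 3.83 and 3.76 in the NTD lists, against 3.64, 2.87 and 4.33 in the CON lists. The groups overlap, and CON 2 is the lowest and CON 3 the highest of the 6.

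The others had many tags and a low fold. 2700054A10Rik, a long noncoding RNA gene (chr17:13551846-13553084), had 306, 262 and 244 tags in the NTD lists, against 307, 293 and 386 in the CON lists, with 173 in FA0 and 153 in FA4. Its fold was 1.98, 1.64 and 1.46 in the NTD lists, against 1.54, 1.78 and 1.82 in the CON lists, and 2.25 in FA0, against 2.53 in FA4. It had q at most 0.05 in all 8 lists, although its fold was in the lowest 1.17% of every brain list. Mir101c (chr9:3037837-3038263) had 2358 to 3209 tags per list at a fold of 1.59 to 2.59. The middles of its peaks lay 685 to 710 bases after the start, downstream of the mature sequence printed above and clear of it. Reads from sequence present in many copies cannot be placed with certainty, and how the authors treated such reads is not stated in the labels.

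Apoe held the highest fold among the regions in 4 or more brain lists. Its peaks lay 1727 to 1912 bases after the start of the transcript named by the authors (chr7:19696404-19697108), well beyond the CpG-rich window printed above. The fold was 6.10, 4.47 and 5.32 in the NTD lists, against 2.40 and 3.77 in CON 1 and CON 2, with no promoter peak in CON 3. The NTD folds were all above the CON ones, but the tags were not: 18, 13 and 16 in the NTD lists, against 15 and 18 in CON 1 and CON 2. The implied background was raised in the CON peaks, at 5.66 and 4.04 tags. In the NTD peaks it was at the common value of the list. This background was computed back from tags and fold, so it is no separate measure of the input. The cause of the difference in fold was not tested.

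Apoa1, the main protein of high-density lipoprotein, was in 4 brain lists at 1405 to 1606 bases after the start (chr9:46229915-46230348), with 8 tags in NTD 1 and 9, 8 and 9 in the CON lists. None of these peaks had a raised background or a q at most 0.05. LOC108169017 was in all brain lists but CON 2, with 18, 16 and 22 tags in the NTD lists, against 24 and 26 in CON 1 and CON 3. A530040E14Rik, whose window is printed above, was in all brain lists but NTD 2, with 23 and 24 tags in the NTD lists, against 23, 23 and 31 in the CON lists. Gm11783 was in NTD 1 and the 3 CON lists at a fold of 2.06 to 2.98, and Gm33869 in NTD 2 and the 3 CON lists at 1.87 to 3.97.

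Mitochondrial DNA, which carries genes for respiratory-chain proteins and is present in many copies per cell, gave 4 of the 24 regions in at least 3 brain lists. These regions were assigned to such genes as COX1, ND4 and CYTB, with 261 to 438 tags at a fold of 1.19 to 1.42. In each brain list 100% of the peaks on mitochondrial DNA, 2 or 3 per list, were of the promoter class. The class therefore sets no peak apart there, and the cell lists had no peak on it. On chromosome 1, 11 of the 55 regions in at least 2 lists lay between 84956816 and 85651762, around Sp100 and a run of related predicted genes that includes A530040E14Rik, Gm2427 and Gm15433. This stretch was singled out after its values had been seen, and no share over all classes is given beside its count.

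All NTD lists and none of the CON lists held 3 promoter regions, or 0.153% of the 1960, where the share over all classes was 0.0257%. Gm21190 (chr5:15529203-15529831) had 8, 9 and 10 tags at a fold of 2.89, 3.19 and 3.44 in NTD 1, 2 and 3, and the middles of its peaks lay between -503 and -107 bases. The peaks of NTD 1 and NTD 2 cover part of the window printed above, and that of NTD 2 covers the start itself. The other two lie close together on chromosome 11 at Sfi1, which encodes a centrin-binding protein of the spindle poles, 1 of them shared with Eif4enif1, a transporter of the cap-binding factor eIF4E. They had 51, 52 and 52 tags at a fold of 1.91 to 1.95 (chr11:3199522-3199963) and 61, 67 and 64 tags at a fold of 1.68 to 1.81 (chr11:3195355-3196008) in the NTD lists, all with a raised background. The region at chr11:3195355-3196008 was also touched by peaks of FA0 and FA4 that were not of the promoter class. By gene the separation was not complete, since CON 3 had another promoter peak at Gm21190, and CON 2 and CON 3 had others at Sfi1.

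All CON lists and none of the NTD lists held 4 promoter regions, or 0.204%, where the share over all classes was 0.0514%. Gm13247, a zinc finger gene now named Zfp981, had 13, 14 and 20 tags at a fold of 2.39 to 3.02 (chr4:146513383-146513821), and NTD 1 had another promoter peak at the gene. Sp100, a component of PML nuclear bodies, had 11, 6 and 16 tags at a fold of 2.38, 2.12 and 3.86 in CON 1, 2 and 3 (chr1:85650379-85651762). The same merged region held a peak of FA0 with 14 tags and of FA4 with 13 tags. Gm15433 had 9 to 12 tags (chr1:84956816-84957657) and LOC108167568 had 13 to 17 tags (chr8:55349199-55349856).

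Every peak of these 4 regions had a raised background. No peak of any class of the other group touched the 3 NTD or the 4 CON regions. None of the 3 NTD regions had a q at most 0.05 in any list, and of the CON regions Sp100 did in CON 3 alone. With 3 lists a group no test of a single region can pass 0.05, and none was made.

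**Figure D5:**
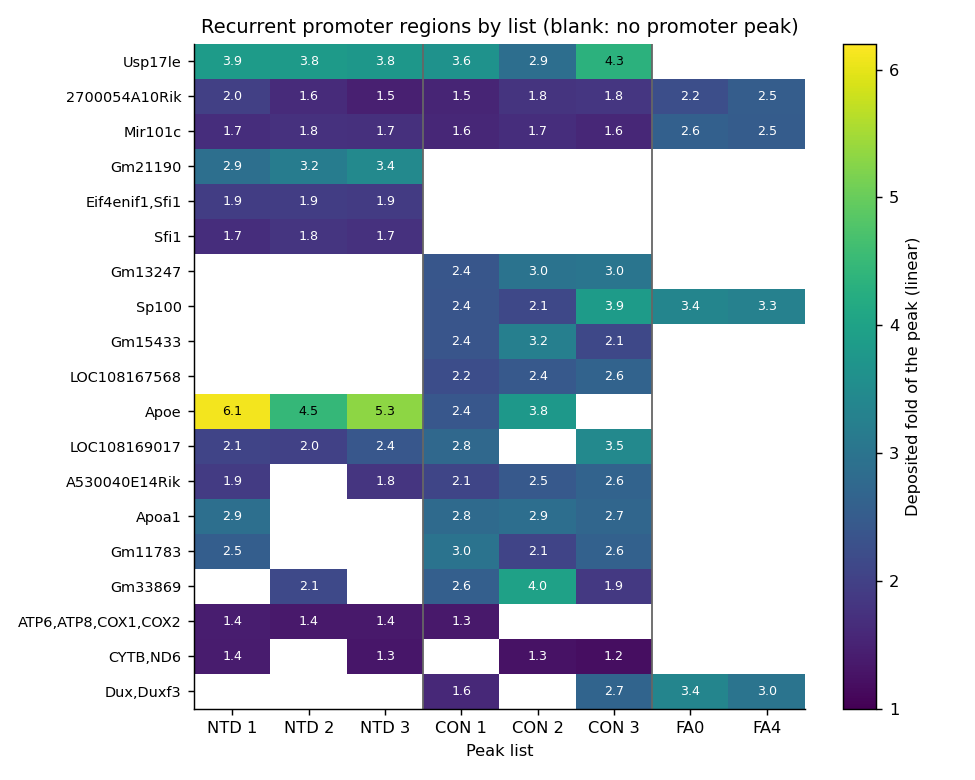
Deposited fold (linear, colour scale and numbers) of the promoter peak of each list (columns) in regions held by at least 4 lists or by all lists of 1 brain group alone (rows, by assigned genes), with blank cells where the list had no promoter peak. Apoe is highest at 6.10 in NTD 1, and the mitochondrial regions are lowest.

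For the gene lists, a promoter peak in any brain list was held by 5.9% of protein-coding genes and 3.84% of all genes, and in any cell list by 7.39% of protein-coding genes and 3.78% of all genes. In FA0 alone the share of protein-coding genes was 5.09%, against 2.5% in FA4. None of 20 genes of DNA 6mA and of DNA demethylation, writers, erasers and their relatives, had a brain promoter peak. In the cells 1 did, Mettl5, which encodes a methyltransferase of 18S ribosomal RNA, with 8 tags in FA0. Of 28 genes of H3K9 methylation and heterochromatin, 3 had one in brain, or 10.7%. Cbx5, which encodes the heterochromatin protein HP1 alpha, had 9 tags in NTD 1 (chr15:103238218-103238433) and 10 tags in NTD 2 (chr15:103241204-103241418), at separate places. The H3K9 demethylase gene Kdm4b had 11 tags in CON 2, and Smchd1, needed for silencing of the inactive X, had 8 tags in NTD 2.

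Neural tube closure genes gave 3 of 55 in brain, or 5.45%, which is close to the 5.9% of all protein-coding genes. Each was in 1 CON list and none in an NTD list. Ift122, a part of the ciliary transport machinery, had 8 tags in CON 1, Jmjd6, which encodes a lysyl hydroxylase, had 12 in CON 2, and Fzd3, a Wnt receptor of planar cell polarity, had 9 in CON 3. Of the list, 0 ± 0% had one per NTD list and 1.82 ± 0% per CON list (SD, n = 3 each; exact permutation test, two-sided p = 0.1, adjusted p = 1 over 17 lists). None of the 3 peaks had q at most 0.05.

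Folate and one-carbon genes gave 2 of 38 in brain, or 5.26%. Mthfd2, the mitochondrial methylenetetrahydrofolate dehydrogenase, had 10 tags in CON 2, 338 bases before the start, and Atic, which makes the last steps of purine synthesis, had 7 in CON 3. In the cells Ahcy, which breaks down S-adenosylhomocysteine, had 7 tags in FA0, and Aldh1l1, a 10-formyltetrahydrofolate dehydrogenase, had 11 in FA4 at a fold of 4.19. Among neural patterning factors 2 of 45 (4.44%) had one in brain. They were the proneural gene Neurog2 with 6 tags in CON 2 and the dorsal progenitor factor Olig3 with 6 in NTD 3. En1 had 13 tags in FA0 at a fold of 4.31, and Lhx2 had 7 in FA4.

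Pluripotency genes, which embryonic stem cells use, had no brain promoter peak among 30, where the share of protein-coding genes was 5.9%. In FA0 there were 3 and in FA4 none, where the shares of protein-coding genes were 5.09% and 2.5%. Counts this small are not read as a trait of the list. Nanog had 8 tags 1866 bases after the start, Tdgf1 had 7 and Fbxo15 had 8. Other lists gave 4 of 87 ribosomal protein genes (4.60%), 3 of 111 core histone genes (2.70%) and 2 of 39 Hox genes (5.13%) in brain. General transcription genes gave 1 of 56 (1.79%) in brain. Small nucleolar RNA genes gave 5 of 142 (3.52%), where the share of all genes was 3.84%. The 1 of 6 Usp17 genes was Usp17le.

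The longest list was that of predicted genes, of which 620 of 25104 (2.47%) had a promoter peak in brain and 204 in the cells. The cell lists held curated transcripts alone, so brain and cell counts are not comparable here. Among olfactory receptor genes, 56 of 1428 (3.92%) had a promoter peak in brain and 131 (9.17%) in the cells. Vomeronasal receptor genes gave 23 of 359 (6.41%) in brain and 36 in the cells, and Zfp zinc finger genes 22 of 416 (5.29%) in brain and 40 in the cells. MicroRNA genes gave 51 of 1198 (4.26%) in brain and 79 in the cells, but promoter peaks overlapped 9 hairpins in all, each in 1 list. Reads of near-identical family members may be split between them. Between NTD and CON no list gave an adjusted p below 1 over the 17 lists, and the lowest exact p was the 0.1 of the closure genes.

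In the cells promoter peaks were 1.99 times as many in FA0 as in FA4, near the ratio of 1.92 of all peaks. At q at most 0.05 there were 29 in FA0, against 32 in FA4, a ratio of 0.906 where that of all peaks was 1.09. Without chromosome 8, which held 122 promoter peaks in FA0 and 113 in FA4, the ratio was 2.2, and that of all peaks 2.14. With 1 list per condition no test was possible.

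FA0 and FA4 shared 26 promoter regions, which is 2.11% of those in FA0 and 4.20% of those in FA4. They were 1.42% of the 1827 regions with a cell list, where the share over all classes was 1.19%. Vps4a led by the lower of its folds, with 10 tags at a fold of 3.43 in FA0 and 13 tags at 3.61 in FA4, 1035 to 1085 bases after the start (chr8:107032060-107032661) and clear of the window printed above. Snx9, a sorting nexin of endocytosis, had 9 tags in each list, at a fold of 3.17 in FA0 and 3.49 in FA4. Dennd1c, which activates Rab35, had 10 tags in FA0 and 8 in FA4.

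Olfr1260, an olfactory receptor gene, had shared peaks over the deposited start site, with middles at -8 bases in FA0 and 11 bases in FA4 and with 9 tags in FA0 and 7 in FA4. The others named by rank were Ifit1bl1, Gm20594, Erdr1, Als2cr12, Sp100 and the Dux locus. Dux, which encodes a factor of early zygotic gene activation in mouse and lies in a tandem array, had 69 tags in FA0 and 57 in FA4, with 33 in CON 1 and 54 in CON 3.

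Among peaks in 1 condition alone, FA0 was led by A630089N07Rik with 15 tags at a fold of 5.13, Drc7, a part of the dynein regulatory complex of motile cilia, with 15 at 5.07, and Plac8 with 14 at 4.81. Ankrd49 and Rnasek came next at 4.75 and 4.49. FA4 was led by Tlr11, a Toll-like receptor, with 14 tags at a fold of 5.24, Mrfap1 with 13 at 4.89 and Vmn1r2, a vomeronasal receptor gene, with 15 at 4.54, ahead of 1700116B05Rik and Tmem9 at 4.54 each. All 10 had q at most 0.05, and none lay within 500 bases of its start site. By gene, 1700116B05Rik was not in FA4 alone, since FA0 had another promoter peak there with 6 tags.

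Brain and cell lists shared 22 promoter regions, which is 1.12% of the brain regions and 1.20% of the cell regions. Over regions of all classes these shares were 2.64% and 1.41%, but predicted transcripts were used for the brain alone, and a shared region counts here only where lists of both kinds call it promoter. Beside Mir101c, 2700054A10Rik, Sp100 and the Dux locus, these included Dapk3, which encodes a death-associated kinase, with 13 tags at a fold of 4.50 in NTD 1 and 15 at 3.48 in FA4. Mark2, a kinase of cell polarity, had 8 tags in NTD 1 and 10 in FA0. Gm15319, whose window is printed above, had 12 tags in NTD 1 and 34 in FA0.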

How the data were processed

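6mA-bound DNA was pulled down from sonicated mouse embryo brain and embryonic stem cell DNA and sequenced beside input, per the labels' protocols. The submitters' processing notes name the build mm10, cutadapt 1.9.2 and Bowtie2 2.2.4, with the peak caller not given in the sources used here. Each immunoprecipitation has a list of its own, per the file headers, and each peak has a row for every transcript. The brain lists headed Case and Control were read as NTD and CON, there being no other brain group. Tags per peak are a deposited whole-number count, with no normalization by the authors that its values show, and could be summit heights. Deposited p-values and q-values are on the authors' −log10 scale. The fold is the authors' deposited ratio, read as tags plus 1 over background plus 1, and the background was computed back from it.

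Rows were reduced to 1 per peak, and the class is that of its first row. In 7378 rows within 2000 bases of a start, and in rows beyond, 0 went against the class. Symbols were matched to RefSeq genes (GRCm38.p6), which placed 89.7% to 99.5% of those in a list. Peaks overlapping by 1 base were merged into regions. NTD and CON were compared with exact permutation tests over 20 assignments of 6 lists, and promoter with other peaks by exact sign flips over 64 patterns, with Benjamini-Hochberg adjustment. The 2 cell lists were not tested.

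Named regions were those in all 6 brain lists, in all lists of 1 group alone, the next 10 by number of brain lists, the 10 leading in both cell lists, 5 in each cell list alone, up to 10 in brain and cells, and members of the 17 gene lists found in more than 1 brain list or both cell lists. Of the lists for 6mA, closure, folate, heterochromatin and pluripotency, every member with a brain peak was included. Members with a peak in 1 cell list, patterning factors and the stretch around Sp100 were named after their values were seen. Members, lists and tests were chosen with earlier results of these data known. Procedures were tested on simulated data. Alternatives are given at the end. Python 3.11.15, numpy 2.4.6, pandas 2.3.3, scipy 1.17.1 and matplotlib 3.10.9 were used.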

Additional observations from a re-analysis of the deposited data

How the results depend on the processing

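The brain counts rest on few lists with few tags per peak, so a missing peak is not shown to be a missing mark. Among promoter regions, 55 were in at least 2 brain lists, 3 in all 6, 3 in all NTD but no CON lists, 4 in all CON but no NTD lists and 26 in both cell lists. With q at most 0.05 these counts were 5, 2, 0, 0 and 4. With a fold of at least 5 they were 1, 0, 0, 0 and 0, and no comparison between lists could be computed. Without raised backgrounds they were 15, 0, 2, 0 and 7, not necessarily the same regions, and within 500 bases of the start 8, 0, 0, 0 and 6. Brain lists of equal length gave 24, 1, 1 and 1, and an overlap of 50% left 2 in all CON but no NTD lists. Leaving out 1 list gave 42 to 47 in at least 2 lists, 3 to 4 in all lists left, 3 to 5 in all NTD lists left and 4 to 8 in all CON lists left.

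None of the NTD and CON comparisons could pass 0.05 in any setting, because their exact tests can give no p below 0.1. These directions turned. With q at most 0.05 the difference of NTD from CON was -2.33 promoter peaks, -8.33 bases of median distance, 5.87 points upstream, 55.8 tags, 5.33 bases of width, -2 genes and 26.8 points of recurrence. Equal lengths gave -7.67 promoter peaks and -8.33 genes, autosomes alone -0.260 points within 200 bases, common backgrounds 0.0797 points of promoter share, and peaks within 500 bases 1.18 points upstream. Leaving out 1 list gave -0.517 to 0.00528 points of promoter share, -2.25 to 0.945 points upstream and -0.815 to 0.813 points within 200 bases.

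For promoter against other peaks, q at most 0.05 gave 118 tags and -5.13 points of raised background, common backgrounds gave -0.25 bases of width, and peaks within 500 bases gave -0.689 points with q at most 0.05. The shortfall near the start was -19.8 points with q at most 0.05 (exact p = 0.03125, adjusted p = 0.0625) and -7.19 to -6.02 points with 1 list left out, where the smallest possible p is 0.0625. The difference between CpG-rich and other windows was -0.000763 points with q at most 0.05 and -0.0816 to -0.0596 points with 1 list left out. On autosomes the share within 500 bases at CpG-rich starts minus that at the others was -14.3 points. The exact sign-flip test gave p = 0.03125 and adjusted p = 0.03125, where the main adjusted p was 0.0625. Like the main value, it covers only the peaks near a start in the window table. In the cells q at most 0.05 gave promoter shares of 2.81% in FA0 and 3.39% in FA4 and a ratio of 0.906, and a fold of at least 5 gave 5% in FA0 and 2.17% in FA4. The causes were not tested. With same-numbered lists paired as a replicate block, the difference in promoter peak number was 97 (exact p = 0.5, where the smallest possible is 0.25), and no call changed. The numbers are list numbers in the headers. Over 11 measures the correlations of same-numbered lists were -0.0143, -0.455 and 0.0174. These measures are few and related to one another, so they cannot show whether the lists were paired.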
